A study of Drosophila melanogaster with 24 samples.

Results

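The genes described here are 9 Drosophila melanogaster genes of starvation signalling, insulin signalling and lipid storage: AkhR, InR, foxo, Thor, sug, bmm, Lsd-1, Lsd-2 and ACC. They were taken by name, and the rule sets no threshold on a measured value. Of the 9 genes, 8 had a probe set annotated to them alone, among 11982 such genes and 18769 probe sets on the array. AkhR had 2, so that 9 probe sets are reported. In the annotation, AkhR lies on chromosome arm 2L, sug and ACC on 2R, bmm on 3L, InR, foxo and Lsd-1 on 3R, and Lsd-2 on X. Thor, which encodes the translational repressor 4E-BP, had no probe set of its own and has no value here. The flies came from lines derived from 1 natural population of 60 isofemale lines. Lines H1 and H2 had been selected for high male aggression, lines L1 and L2 for low male aggression, and lines C1 and C2 had been kept without selection. Each of 24 samples was RNA from 12 pooled whole virgin flies of 1 line and 1 sex, aged 3 to 7 days. The flies had been deprived of food for 90 min, and every line was sampled 2 times per sex. No fed flies were measured, so food deprivation was the same in every group. Generation 25 is given in the article for these flies and generation 28 in the design text of the series. One label of an H2 male array names both lines of its group. It was read as H2, because a first male array of H1 is labelled separately.

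In flies, insulin-like peptides act on the insulin receptor InR when food is plentiful, and this signalling keeps the transcription factor foxo out of the nucleus. During starvation, adipokinetic hormone acts on its receptor AkhR in the fat body, the organ that serves as both liver and adipose tissue, and fat and glycogen are released. Triglyceride is held in lipid droplets coated by the perilipins Lsd-1 and Lsd-2, and the lipase bmm (brummer) breaks it down. ACC, acetyl-CoA carboxylase, makes the malonyl-CoA from which fatty acids are built, and sug (sugarbabe) is a zinc finger transcription factor induced by dietary sugar.

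The authors' values were Signals, intensities on a linear scale, and the trimmed mean on which each array had been scaled lay between 497 and 498. The median Signal was 124.8 to 143.4 on male arrays and 71.4 to 118.9 on female arrays. A pair of arrays stood apart. The first C1 female array had accessory gland markers that summed to 2349.7, against 64.1 to 162.7 on the other female arrays. The first L1 female array had the highest female median Signal, 118.9, and the other female arrays had 71.4 to 88.4. Results that rest on either array are given with and without it. The markers of ovary summed to 17598 to 23481 on female arrays and to 358 to 480 on male arrays, and those of testis to 17907 to 26699 on male arrays. Of 6 fat body markers, apolpp, Mtp, Apoltp and Lsp2 were above the filter, and Fbp1 and Fbp2 were not.

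All 9 probe sets passed the filter on low Signal. Values were compared as log2(Signal + 16), so that a difference of a low probe set is understated, in a limma fit that gave every line its own mean in either sex. Adjusted p-values are from this fit, by the method of Benjamini and Hochberg over all probe sets tested. Sex, line and their interaction were called at an adjusted p under 0.001. Selection groups were taken to differ consistently in a gene where 2 conditions held: the contrast had to reach an adjusted p under 0.05, and all 4 line pairs across the groups had to differ in the same direction. The p-values measure the spread between samples of 12 flies, and nothing in the labels says how separate the cultures of these samples were.

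**Figure D1:**
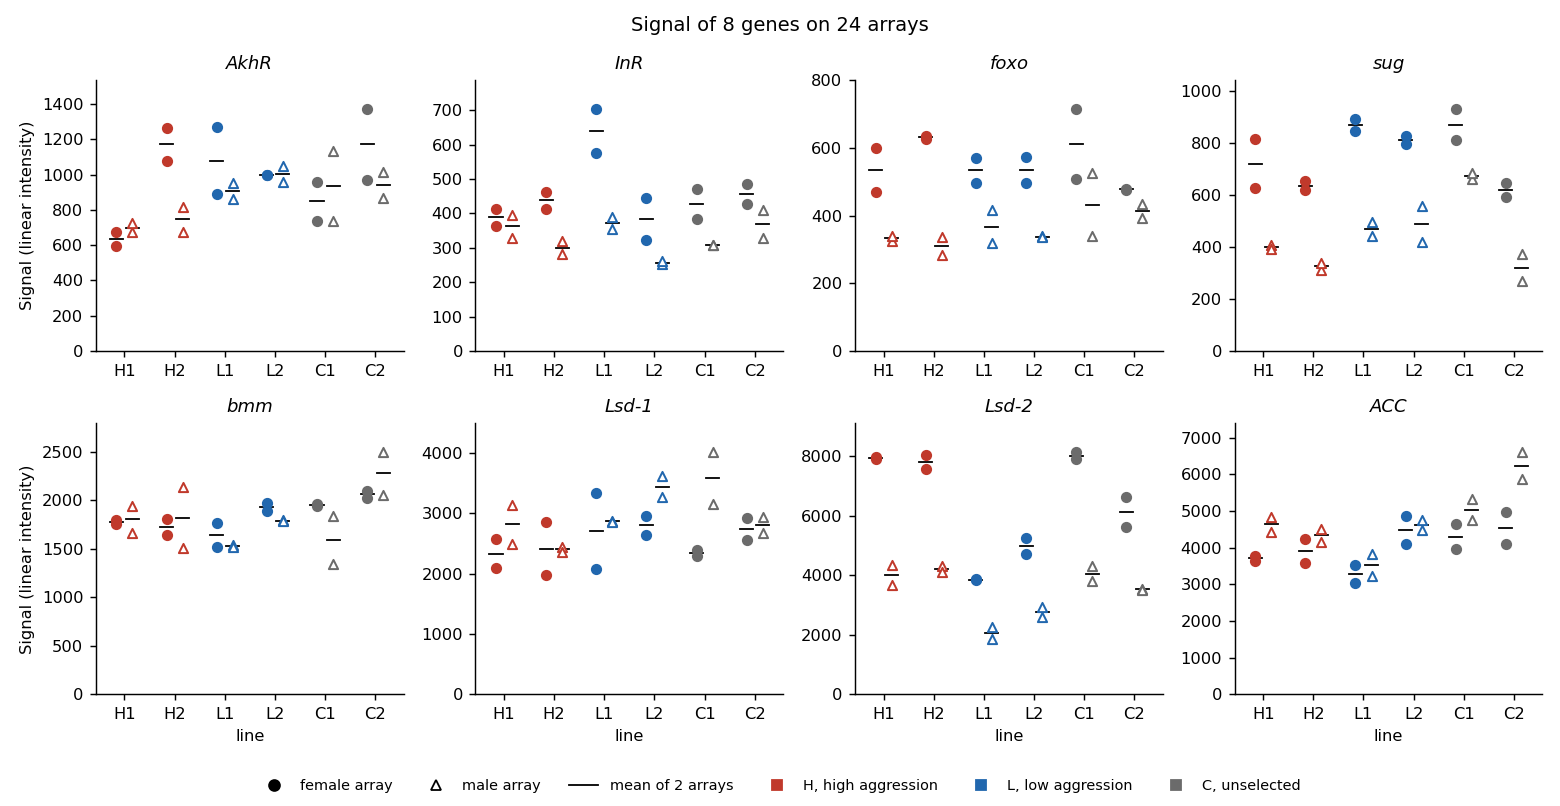
Signal (vertical axis, linear intensity from 0) of the 8 genes with a probe set of their own on 24 arrays, by line (horizontal axis). Filled circles are female arrays, open triangles male arrays, short bars the mean of the 2 arrays, and colors the selection group. The 4 L arrays of each sex lie below the others for Lsd-2, and the L1 female arrays lie above the others for InR.

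The first comparison was between the sexes. Of the 8 genes, 4 passed the test, and all 4 were higher in females: Lsd-2, sug, foxo and InR. Over all probe sets 75.5% passed this test, and 45.3% passed it with the higher Signal in females, so that 4 of 8 was near the background. Each of these 4 genes was higher in females in 6 of 6 lines. ACC was higher in males in 6 of 6 lines, by 0.22 ± 0.06 (SE) on the log2 scale, and did not reach the threshold (adjusted p = 0.00273). Lsd-1 was also higher in males in 6 of 6 lines, by 0.22 ± 0.09 (adjusted p = 0.0243). Whole females hold ovaries, and in whole flies fewer cells of a type and less RNA per cell cannot be told apart. The part of the ovary in these differences was not tested.

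**Figure D2:**
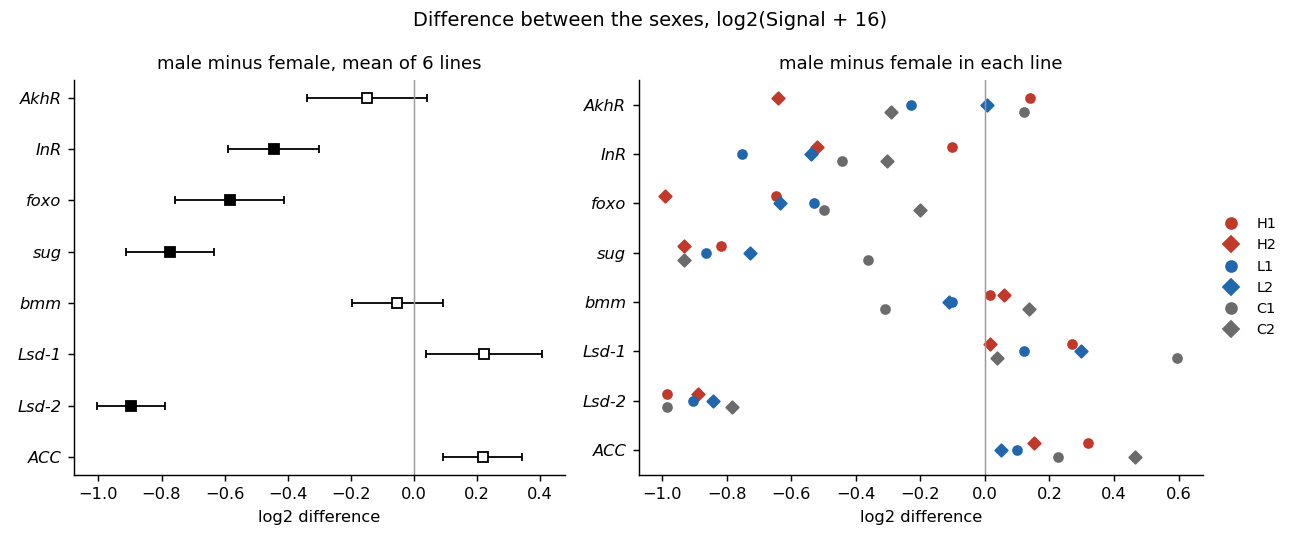
Difference male minus female in log2(Signal + 16) (horizontal axis) for 8 genes (vertical axis). On the left, squares are the mean over 6 lines with 95% intervals, filled where the adjusted p is under 0.001. On the right, each point is 1 line. Lsd-2, sug, foxo and InR lie below 0 in all 6 lines, ACC and Lsd-1 above 0.

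The second comparison was between lines and selection groups. It asked which of these genes differed between flies selected for high aggression, flies selected for low aggression and controls, all sampled after the same short food deprivation. Line was significant for 2 of the 8 genes, Lsd-2 (adjusted p = 1.92e-06) and sug (adjusted p = 0.000686), against 6.71% of all probe sets. The interaction of line and sex was significant for 0 of the 8 genes in the limma fit, against 0.0257% of all probe sets, and 0 of the 8 had an unadjusted p under 0.05. Between H and L, 2 of 8 genes were consistently different, Lsd-2 higher and sug lower in H, against 7.63% of all probe sets. Between H and C, 1 of 8 was, ACC, lower in H, against 9.11%. Between L and C, 2 of 8 were, Lsd-2 and ACC, both lower in L, against 5.55%. The H minus C and L minus C contrasts share the C arrays, and the H minus L contrast shares its arrays with both. The median difference over the 8 genes was -0.04 for H minus L, -0.16 for H minus C and -0.05 for L minus C, against -0.02, -0.03 and -0.01 over all probe sets. Over all probe sets, 357 were higher and 533 lower in H than in L. When every array of a sex was scaled to the same median instead, these numbers were 1186 and 151. Between H and C they were 397 and 666, and 529 and 188 with the same median, and between L and C 288 and 360, and 141 and 347. Among female arrays, scaling to the same median lowered the first L1 array most, as its median Signal was 118.9. The scaling was not repeated without that array. None of the 24 differences between selection groups (8 genes, 3 contrasts) was shown to depend on sex: 0 interactions had an adjusted p under 0.05 in limma, 1 had an unadjusted p under 0.05, and the lowest adjusted p was 0.356.

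**Figure D3:**
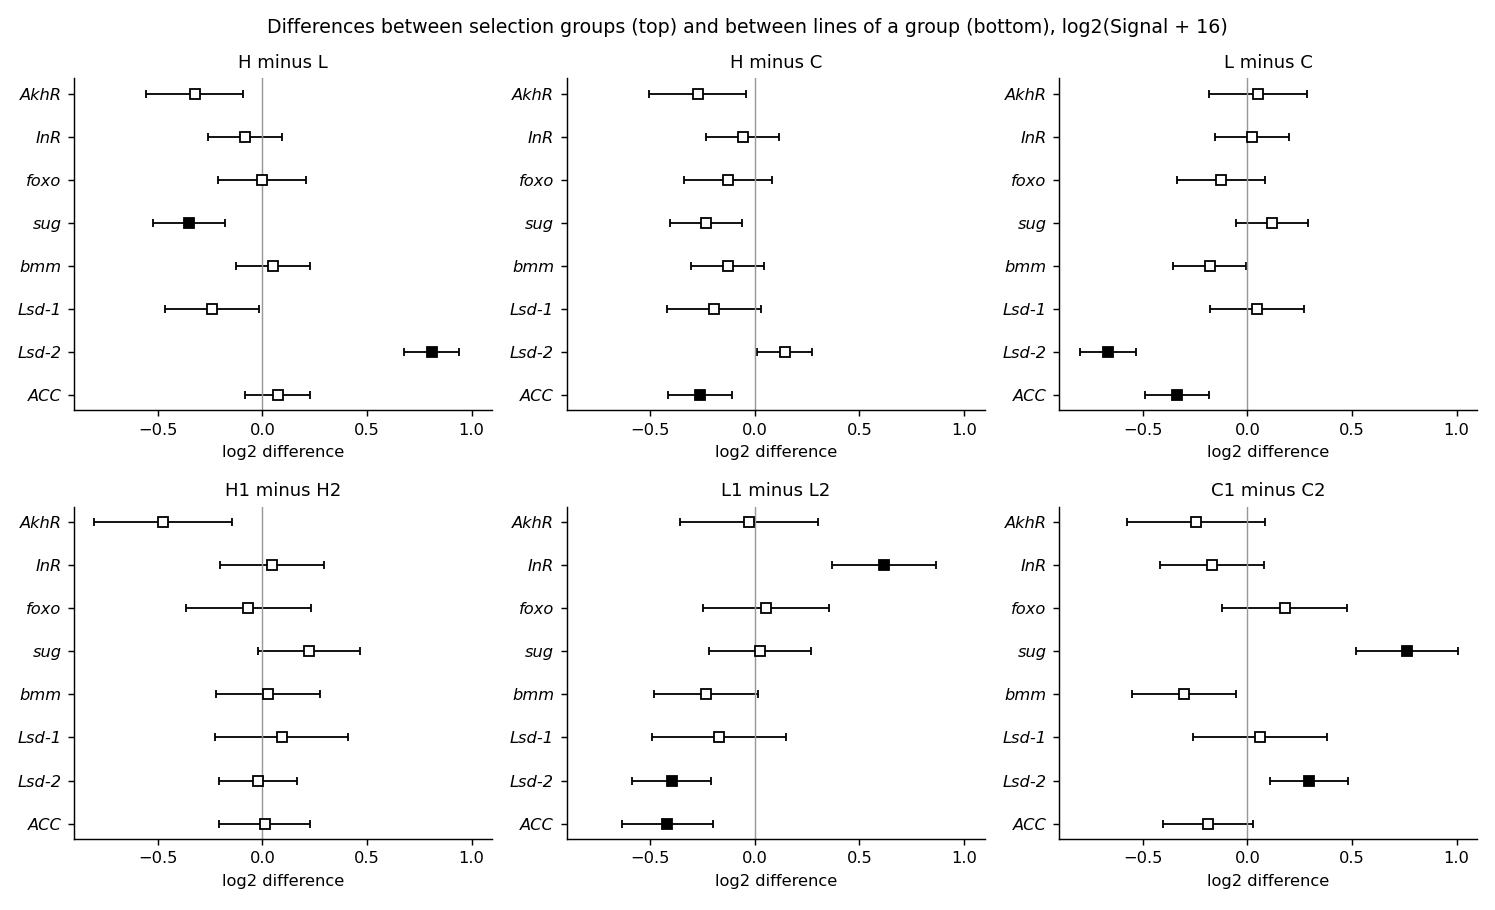
Differences in log2(Signal + 16) (horizontal axes) between selection groups in the upper row and between the lines of a group in the lower row, for 8 genes (vertical axes). Squares are limma estimates with 95% intervals over both sexes, filled where the gene was called. The largest differences between groups are those of Lsd-2, 0.81 for H minus L and -0.67 for L minus C, and sug differs by 0.76 between the unselected lines.

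AkhR encodes the receptor through which adipokinetic hormone mobilizes stores. Its main probe set read 593.3 and 675.4 in H1 females, 1079.2 and 1265.9 in H2 females, 890.4 and 1268.3 in L1 females, 997.7 and 998.6 in L2 females, 957.6 and 737.5 in C1 females, and 970.0 and 1372.5 in C2 females. In males it read 673.7 and 725.8 in H1, 675.6 and 816.6 in H2, 950.4 and 861.1 in L1, 1046.7 and 959.6 in L2, 1135.6 and 736.3 in C1, and 869.7 and 1015.6 in C2. The 4 H male arrays were below the 4 L male arrays, while H and L overlapped in females, where H1 was lowest of all lines and H2 was not. AkhR was 0.32 ± 0.11 lower in H than in L on the log2 scale, and this did not pass the test (adjusted p = 0.0769, 95% interval -0.56 to -0.09). Without the first L1 female array the difference was -0.39, with an adjusted p of 0.0386, without line H2 it was -0.56 (adjusted p = 0.0236), and without line H1 it was -0.09 (adjusted p = 0.819). H1 and H2 differed by -0.48 ± 0.15 (adjusted p = 0.106). The second AkhR probe set was dim, with a mean of 60.6 ± 16.6 (SD, n = 12) in males and 87.2 ± 20.0 in females. It was lower in males by 0.44 ± 0.10 on the log2 scale (adjusted p = 0.000603), whereas the main probe set differed by -0.15 ± 0.09 between the sexes (adjusted p = 0.128). Between H and C it differed by -0.61 ± 0.17 in males (adjusted p = 0.0436) and by 0.09 ± 0.17 in females (adjusted p = 0.833). The interaction of this difference with sex did not pass the test (adjusted p = 0.266), and the main probe set differed by -0.36 ± 0.15 in males (adjusted p = 0.19).

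InR encodes the single insulin receptor of the fly. Its Signal in females was 703.8 and 576.8 in L1, against 323.4 and 445.2 in L2, 414.0 and 363.4 in H1, 462.2 and 412.5 in H2, 469.7 and 382.7 in C1, and 485.3 and 427.5 in C2. Both L1 female arrays were above the other 10. In males the L1 arrays, 355.6 and 388.2, overlapped with those of H1 (328.9 and 394.7) and C2 (327.1 and 409.0), and the L2 arrays, 252.1 and 260.5, were lowest. The H2 males read 281.6 and 319.2 and the C1 males 307.5 and 307.2. InR was thus higher in L1 than in L2, by 0.62 ± 0.12 on the log2 scale (adjusted p = 0.00244), a difference inside a selection group. Without the first L1 female array this InR difference was 0.55. Over all probe sets 14.2% differed between L1 and L2 at an adjusted p under 0.05. The groups themselves differed in InR by -0.08 (H minus L), -0.06 (H minus C) and 0.02 (L minus C), each with an SE of 0.08 and an adjusted p of at least 0.618. These values rested on which L line was used: without L2, H minus L was -0.39 (adjusted p = 0.0161) and L minus C 0.33 (adjusted p = 0.0404), and without L1 they were 0.23 (adjusted p = 0.219) and -0.29 (adjusted p = 0.119). InR was lower in males by 0.44 ± 0.07 (adjusted p = 1.43e-05).

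foxo, the transcription factor that insulin signalling restrains, was the gene that varied least by line (adjusted p = 0.636). Its Signal was 470.8 to 715.0 in females, with a median of 539.0, and 282.3 to 524.0 in males, with a median of 338.9. The first C1 male array, at 524.0, lay inside the female range, and the other 11 male arrays, at 433.7 and below, lay under every female array. foxo was lower in males by 0.58 ± 0.08 on the log2 scale (adjusted p = 5.07e-06). Between selection groups it differed by 0.00 (H minus L), -0.13 (H minus C) and -0.13 (L minus C), each with an SE of 0.10, and the H minus L interval was -0.21 to 0.21. The interaction of the H minus C difference with sex was the 1 of 24 with an unadjusted p under 0.05, with -0.36 in males and 0.11 in females (adjusted p of the interaction = 0.356).

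sug, the sugar-induced transcription factor, was lower in H than in L. In females its Signal was 628.8 and 814.9 in H1, 654.7 and 618.5 in H2, 893.2 and 846.3 in L1, and 798.4 and 830.0 in L2. In males it was 406.6 and 391.3 in H1, 312.7 and 338.8 in H2, 444.7 and 496.8 in L1, and 420.0 and 559.7 in L2. The H and L arrays did not overlap in males and overlapped by 1 H1 array in females. The unselected lines lay at both extremes: C1 read 932.9 and 811.8 in females and 663.8 and 683.9 in males, and C2 read 593.9 and 648.3 in females and 268.8 and 374.2 in males. sug was lower in H than in L by 0.35 ± 0.08 on the log2 scale (adjusted p = 0.0112). C1 and C2, which had not been selected, differed by 0.76 ± 0.11 (adjusted p = 0.00062), more than H and L did. Without the first C1 female array C1 and C2 differed by 0.71. Over all probe sets 9.34% differed between C1 and C2 at an adjusted p under 0.05. sug differed by -0.23 ± 0.08 between H and C (adjusted p = 0.0782) and by 0.12 ± 0.08 between L and C (adjusted p = 0.466), and each value depended on the control line. Against C2 alone, L was 0.50 higher (adjusted p = 0.00821), and against C1 alone, H was 0.62 lower (adjusted p = 0.00129). The call for H against L ended without line H2 (-0.24, adjusted p = 0.201), without line L1 (-0.34, adjusted p = 0.0677), with line as a random block (adjusted p = 0.611) and with every array of a sex scaled to the same median (-0.19, adjusted p = 0.208). The line effect ended when any of 19 single arrays was left out, with an adjusted p of at most 0.00258. sug was lower in males by 0.77 ± 0.07 (adjusted p = 1.38e-08) and was lower in 6 of 6 lines.

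bmm, the fly homologue of adipose triglyceride lipase, passed none of the tests. Its Signal was 1522 to 2094 in females (median 1852) and 1339 to 2493 in males (median 1788). The 4 C female arrays, from 1936 to 2094, were above the 4 H female arrays, from 1641.2 to 1809.8, and overlapped with those of L. In males all 3 groups overlapped. On the log2 scale bmm differed by 0.05 (H minus L), -0.13 (H minus C) and -0.18 (L minus C), each with an SE of 0.08, with adjusted p-values of 0.776, 0.356 and 0.224. The sexes differed by -0.05 ± 0.07 (adjusted p = 0.475).

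Lsd-1 encodes a perilipin needed for hormone-stimulated lipolysis. It read 2089.2 and 2567.3 in H1 females, 1970.6 and 2857.5 in H2 females, 2077.2 and 3334.6 in L1 females, 2639.6 and 2951.8 in L2 females, 2296.4 and 2393.8 in C1 females, and 2553.8 and 2922.8 in C2 females. Arrays of the same line and sex lay as far apart as the lines did, and the 3 groups overlapped. In males the H arrays, from 2358.0 to 3134.1, overlapped with the L arrays, from 2854.4 to 3613.1, and the C arrays, from 2678.4 to 4006.8. Lsd-1 was 0.24 ± 0.11 lower in H than in L (adjusted p = 0.178). Without the first L1 female array this was -0.33, with an adjusted p of 0.0428.

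Lsd-2, the other perilipin, protects stored fat from lipolysis and also coats the droplets of early embryos. It showed the largest difference between selection groups of the 8 genes. In females its Signal was 3832.2 and 3873.1 in L1, 5252.1 and 4714.7 in L2, 6618.1 and 5616.7 in C2, 8124.9 and 7902.6 in C1, 7890.9 and 7970.0 in H1, and 7580.1 and 8017.7 in H2. In males it was 1859.1 and 2264.1 in L1, 2944.7 and 2604.2 in L2, 3554.4 and 3516.9 in C2, 4298.9 and 3797.9 in C1, 3684.8 and 4341.2 in H1, and 4295.7 and 4103.7 in H2. The 4 L arrays of each sex were below all H and C arrays of that sex, and Lsd-2 was the only one of the 8 genes of which this was true. Over all probe sets, 0.0857% had their L arrays below all H and C arrays in both sexes, which is 10 probe sets. This way of counting was chosen after the values were seen.

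The order of the lines for Lsd-2 was the same in both sexes at its lower end. L1 was lowest, then L2 and then C2, with no overlap between neighbors in the order. H1, H2 and C1 followed, and their arrays overlapped with each other. Mean Signals in females were 4418 ± 689 (SD, n = 4) in L, 7066 ± 1172 in C and 7865 ± 197 in H, and in males 2418 ± 465 in L, 3792 ± 360 in C and 4106 ± 299 in H. On the log2 scale Lsd-2 was higher in H than in L by 0.81 ± 0.06 (adjusted p = 7.86e-07, 95% interval 0.68 to 0.94), which is 1.75-fold. Within males the same fit gave 0.78 ± 0.09 (adjusted p = 9.45e-05), and within females 0.84 ± 0.09 (adjusted p = 4.42e-05). Both rest on 1 spread estimated over the arrays of both sexes. A difference between H and L at least as large as that over both sexes was found for 1.29% of all probe sets. Lsd-2 was lower in L than in C by 0.67 ± 0.06 (adjusted p = 6.94e-06), by 0.66 in males and 0.67 in females, and 1.74% of all probe sets differed by at least as much. H and C differed by 0.14 ± 0.06 (adjusted p = 0.165, 95% interval 0.01 to 0.27). This last value rested on the control line: it was 0.00 without C2 and 0.29 without C1.

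**Figure D4:**
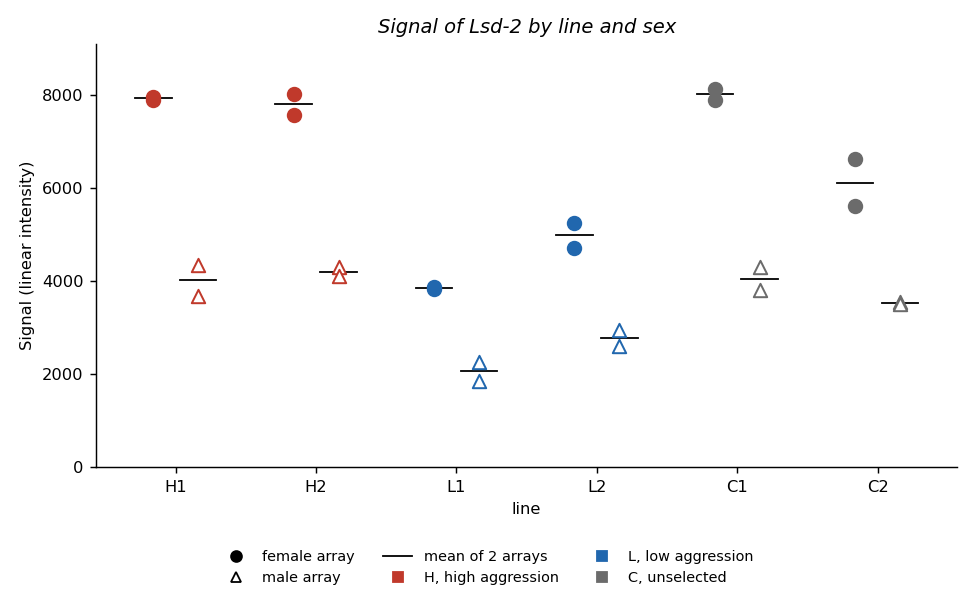
Signal of Lsd-2 (vertical axis, linear intensity from 0) by line (horizontal axis). Filled circles are female arrays, open triangles male arrays and short bars the mean of the 2 arrays of a line and sex. In both sexes the L1 and L2 arrays are lowest, C2 is next, and H1, H2 and C1 overlap.

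The Lsd-2 differences of H from L and of L from C remained called in all 42 alternatives, which include leaving out each array, leaving out each line and treating line as a random block. The fit with the line as the replicate, given further below, is not among the 42, and neither difference passed there. The lines of a group also differed in Lsd-2. L1 was lower than L2 by 0.40 ± 0.09 (adjusted p = 0.00669). C1 was higher than C2 by 0.29 ± 0.09 (adjusted p = 0.0484), a call that ended when any of 19 single arrays was left out. H1 and H2 differed by -0.02 ± 0.09 (adjusted p = 0.948). With line L1 left out, H exceeded L by 0.61 (adjusted p = 0.000246). Lsd-2 was lower in males by 0.90 ± 0.05 (adjusted p = 6.22e-11), and by 0.78 to 0.98 in each of the 6 lines.

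Markers of other tissues were set beside this result. The ovary markers summed to 17598 to 20944 on L female arrays, 17949 to 23296 on C and 18811 to 23481 on H, and the 3 ranges overlapped. Of the 5 ovary markers, gcl was consistently lower in L than in C. The median of the 5 was 0.04 for H minus L, -0.06 for H minus C and -0.22 for L minus C. The fat body markers summed to 15938 to 21306 on L female arrays, 17644 to 22218 on C and 15591 to 18486 on H, and in males to 18463 to 24376, 17631 to 21602 and 18012 to 22323. These ranges also overlapped. Of the 4 tested fat body markers, Apoltp was consistently lower in H than in L and C, and Lsp2 was higher in both H and L than in C. The gut markers summed to 28759 to 38793 on L female arrays, 37750 to 43657 on C and 35121 to 42689 on H, and in males to 28736 to 33089, 29746 to 36172 and 30450 to 36053. Of the 5 gut markers, LManVI and Jon25Bii were consistently higher in H than in L (median of the 5 0.52), and LManVI and Jon65Aii were lower in L than in C (median -0.17), in the same direction as Lsd-2. Between H and C, Jon99Ci and Jon65Aii were called, 1 higher and 1 lower in H (median of the 5 gut markers 0.34). The part of the gut or of the ovary in the Lsd-2 differences was not tested. Flight muscle markers summed to 33174 to 41235 on H female arrays, 45591 to 52401 on L and 40412 to 52083 on C, and in males to 33166 to 41037, 44712 to 49341 and 42644 to 52327. H lay below L in both sexes and below C in males, and in females it overlapped with C by the first C1 array, at 40412. Act88F and fln, 2 of the 3 flight muscle markers, were consistently lower in H than in both L and C, as was elav, 1 of 3 neuron markers. The median of the 3 neuron markers was 0.0008 for H minus L and -0.42 for H minus C. The part of muscle in the differences of H from L and C was not tested.

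ACC makes the first committed substrate of fatty acid synthesis. In males its Signal was 5322.2 and 4745.1 in C1, 6601.5 and 5860.4 in C2, 4830.2 and 4437.4 in H1, 4168.8 and 4504.3 in H2, 3824.4 and 3222.4 in L1, and 4767.3 and 4473.5 in L2. In females it was 4653.4 and 3956.7 in C1, 4961.5 and 4091.5 in C2, 3645.1 and 3771.0 in H1, 4240.7 and 3587.8 in H2, 3536.8 and 3038.9 in L1, and 4096.1 and 4867.1 in L2. C2 males were above every other line, L1 was lowest in both sexes, and in females the arrays of L2 overlapped with those of both C lines. ACC was lower in L than in C by 0.34 ± 0.07 on the log2 scale (adjusted p = 0.00857). The difference was 0.47 ± 0.10 on male arrays (adjusted p = 0.0195) and 0.20 ± 0.10 on female arrays (adjusted p = 0.359). The difference on male arrays no longer passed when any of 4 single arrays was left out, or line C2 or L1. It also did not pass with every array of a sex scaled to the same median. ACC was lower in H than in C by 0.26 ± 0.07 (adjusted p = 0.0281). H and L differed by 0.07 ± 0.07 (adjusted p = 0.613). L1 was lower than L2 by 0.42 ± 0.10 (adjusted p = 0.0126), a call that ended without the second L1 male array or the second L2 female array.

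Both calls of ACC against C ended in several alternatives, and both rest on the same C arrays. The H minus C call ended when any of 9 single arrays was left out, 4 of them C arrays and 5 of them H arrays, and without line C2, H1 or H2. Without C2 the difference was -0.17 (adjusted p = 0.293). Without the first C1 female array, which carried male transcripts, H minus C was -0.23 (adjusted p = 0.0676). The L minus C call ended without that array, where the difference was -0.31 (adjusted p = 0.0234), without the first C1 male array (-0.32, adjusted p = 0.0239) and without the first L2 female array (-0.30, adjusted p = 0.0262), in each case because not all lines then lay apart. It also ended without line C2 (-0.24, adjusted p = 0.128) or L1 (-0.13, adjusted p = 0.443). Line as a random block ended both calls (adjusted p = 0.503 for H minus C and 0.442 for L minus C), and so did scaling to the same median, where L minus C was -0.41 (adjusted p = 0.00631) with lines that no longer all lay apart. H1 and H2 differed by 0.01 ± 0.10 (adjusted p = 0.98) and C1 and C2 by -0.19 ± 0.10 (adjusted p = 0.28). None of the 8 genes differed between H1 and H2 in limma (0 adjusted, against 4.51% of all probe sets), and 1 of the 8, AkhR, had an unadjusted p under 0.05.

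Selection acted on lines, and each group had 2. When the 6 line means were fitted, with the line as the replicate, the Lsd-2 difference of H from L was 0.81 with a 95% interval of 0.39 to 1.23 (adjusted p = 0.624), and that of L from C was -0.67 with an interval of -1.09 to -0.24 (adjusted p = 0.999). These were the only 2 of the 24 differences whose interval left out 0. Over all probe sets tested 0 passed an adjusted p under 0.05 in this limma fit in any contrast, and 597, 607 and 521 had an unadjusted p under 0.05 (5.12%, 5.20% and 4.47%). An exact permutation test of 2 lines against 2 cannot give a two-sided p below 0.333. Selection and other differences between lines therefore cannot be told apart for single genes here.

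The 8 genes were set beside 126 companion genes of 9 lists, of which 95 were tested. Of the 95, 50 were higher in females, against 45.3% of all probe sets, and 16 in males. Over all probe sets 5283 were higher in females and 3521 in males, 75.5% in all. Between H and L, 0 companions were consistently higher and 5 lower in H, 5.26% in all, against 7.63% of all probe sets. Between H and C, 2 were higher and 10 lower in H, 12.6% against 9.11%, and between L and C, 2 were higher and 2 lower in L, 4.21% against 5.55%. The median difference of H from C was -0.07 over the companions and -0.03 over all probe sets. With line as a random block, 20 of these 21 calls ended, all but that of Apoltp between H and C, and with every array of a sex scaled to the same median 16 ended. Those 16 were all 5 lower calls of H minus L, 9 of the 10 lower and 0 of the 2 higher calls of H minus C, and both higher calls of L minus C. Leaving out some one line ended 18, and leaving out some one array ended 8, which are given beside the genes. Leaving out both the first C1 and the first L1 female array ended 5. These were the H minus C calls of Akt, gig and path and the L minus C calls of path and Sik2. Each group difference called below had the same sign in all 4 pairs of lines.

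In the insulin pathway, 3 of 5 tested signalling genes were lower in H than in C, against 9.11% of all probe sets called in either direction, and the median of the 5 was -0.26. All 3 calls ended with line as a random block and with arrays scaled to the same median. The kinase Akt was lower by 0.37 (adjusted p = 0.0295), its activating kinase Pdk1 by 0.27 (adjusted p = 0.00444) and the receptor substrate chico by 0.26 (adjusted p = 0.0181). The call for Akt ended when any of 8 single arrays was left out, and those for Pdk1 and chico in none of these fits. The receptor itself, InR, differed by -0.06. Between H and L and between L and C, 0 of the 5 were called in limma, while 2 had an unadjusted p under 0.05 in each contrast. All 5 were higher in females, against 45.3% of all probe sets. Among 12 genes of TOR signalling, the nutrient pathway that Thor acts in, 10 were higher in females, against the same 45.3%. The median of the 12 was -0.83, male minus female, against -0.18 over all probe sets. The 10 included rictor (-1.61, male minus female) and Lst8 (-1.63). Only gig, the tuberin of flies and a brake on TOR, was consistently different, lower in H than in C by 0.23 (adjusted p = 0.038), a call that ended when any of 12 single arrays was left out.

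Of 10 listed insulin ligands and partners 4 were tested, and 0 were consistently different between groups in limma, while 2, 1 and 1 had an unadjusted p under 0.05 for H minus L, H minus C and L minus C. Ilp8, a relaxin-like peptide, was higher in females by 3.92, with mean Signals of 569.0 in females and 21.6 in males. Of 8 genes of the adipokinetic hormone pathway, Akh was higher in males by 0.49 (adjusted p = 2.54e-05) and amon, the convertase that processes peptide hormones, by 0.63. Glyp, glycogen phosphorylase, was lower in H than in L by 0.30 (adjusted p = 0.0134) and lower than in C by 0.29 (adjusted p = 0.0173). Glys, glycogen synthase, was lower in H as well, by 0.24 against L (adjusted p = 0.0138) and 0.31 against C (adjusted p = 0.00289). All 4 of these calls ended with line as a random block and with arrays scaled to the same median. UGP and AGBE, other genes of glycogen synthesis on the lists, differed between H and L by 0.28 (adjusted p = 0.099) and -0.02 (adjusted p = 0.922).

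Among 14 other lipid storage genes, Apoltp, which loads lipid onto the carrier particles of the blood and is also one of the fat body markers, was lower in H by 0.32 against L (adjusted p = 0.00101) and 0.48 against C (adjusted p = 3.61e-05). mag (magro), a gut lipase, was higher in H than in C by 0.36 (adjusted p = 0.00119). The mag difference was 0.11 without line H2 and 0.61 without H1. Jabba, a droplet protein that binds histones, was higher in females by 1.90, with mean Signals of 5832 and 1564, and Seipin by 0.97. Of 9 genes of fatty acid oxidation, 8 were higher in females, against 45.3% of all probe sets. The median of the 9 was -0.36, male minus female, against -0.18 over all probe sets. whd, the carnitine palmitoyltransferase that brings fatty acids into mitochondria and is inhibited by the product of ACC, was lower than in C in both selected groups, by 0.54 in H (adjusted p = 8.21e-06) and 0.39 in L (adjusted p = 0.000199). These contrasts share the C arrays. The whd difference of H from C was -0.24 without line H1 and -0.84 without H2. That of L from C was -0.20 without line C2, where its call ended, and -0.58 without C1. Among 10 fatty acid synthesis genes, 0 were consistently different in limma, and 1, 1 and 2 had an unadjusted p under 0.05 for H minus L, H minus C and L minus C. The desaturase Desat2 differed by 1.14 between L and C (adjusted p = 0.0461), but its lines did not all lie on the same side.

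The largest companion difference between groups was that of Pepck2, a phosphoenolpyruvate carboxykinase, lower in H than in C by 1.45 (adjusted p = 2.34e-07). Its mean Signals were 342.4 in H males and 985.0 in C males, and 315.1 and 621.7 in females. This call ended without the second C1 male array or the second H2 male array, with an adjusted p of at most 1.58e-06, because not all lines then lay apart. Its size rested on the H line: it was -0.48 without H1 and -2.41 without H2. Pepck2 was also lower in L than in C by 0.84 (adjusted p = 2.33e-05) and in H than in L by 0.60 (adjusted p = 0.000366). In these contrasts its lines did not all lie on the same side. daw, an activin-like ligand, was lower in H than in L by 0.42 (adjusted p = 0.000324). The daw difference was -0.15 without line H1 and -0.68 without H2. Of 18 genes of energy stress and autophagy, Atg1, the kinase that starts autophagy, was lower in H than in L by 0.34 (adjusted p = 0.00207) and higher in L than in C by 0.28 (adjusted p = 0.0113). The L minus C call of Atg1 ended without the second C1 female array or the second C1 male array. Sirt2, a deacetylase, was higher in H than in C by 0.37 (adjusted p = 0.000276), with a call that ended without the second C1 female array. The Sirt2 difference was 0.12 without line C2 and 0.61 without C1. Sirt2 was also higher in L than in C by 0.26 (adjusted p = 0.00556), but its lines did not all lie on the same side. path, an amino acid transporter, was lower than in C by 0.26 in H (adjusted p = 0.0417) and 0.35 in L (adjusted p = 0.00986). Sik2, a salt-inducible kinase, was higher in L than in C by 0.83 (adjusted p = 0.0449), with mean Signals of 40.5 to 86.1 in these groups. The calls for path ended when any of 12 (H) or 4 (L) single arrays was left out, and the call for Sik2 when any of 17 was. The sizes rested on the control line. The Sik2 difference was 0.05 without line C2 and 1.62 without C1. For path, H minus C was -0.09 without C2 and -0.42 without C1, and L minus C was -0.18 without C2 and -0.51 without C1.

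**Figure D5:**
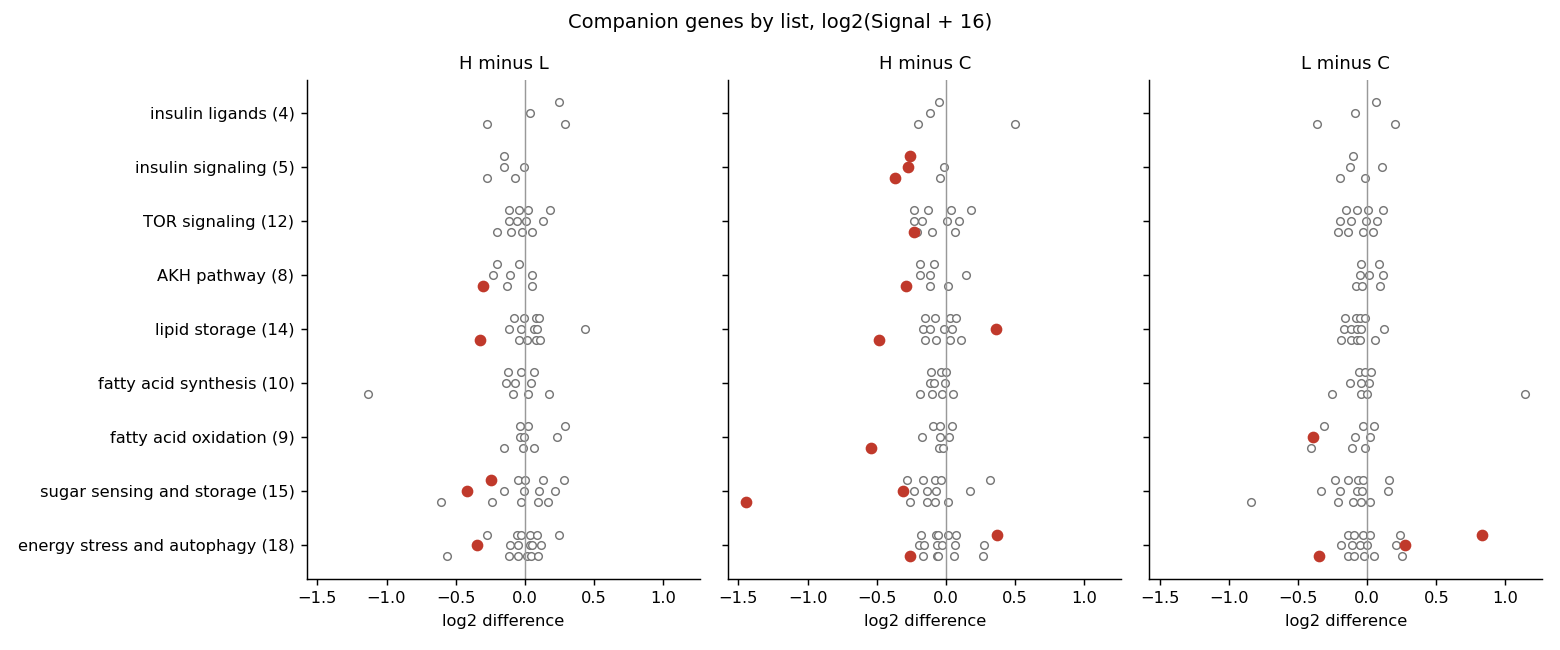
Differences between selection groups in log2(Signal + 16) (horizontal axes) for the companion genes tested, by list (vertical axis, number of genes tested in parentheses). Each circle is 1 gene, filled where it was consistently different. In H minus C, 10 of the 12 filled circles lie below 0, with Pepck2 at -1.45.

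The genes whose values followed each of the 8 most closely were taken from the 9753 genes tested, by Pearson's r over the 24 arrays after the mean of each sex was removed. These correlations describe the arrays, which share lines, and the 3 highest of many are given without a test. Lsd-2 was followed most closely by SCOT (r = 0.884), Ugt35C1 (r = 0.879) and PIG-T (r = 0.874). SCOT is a transferase of ketone body breakdown and Ugt35C1 a glucuronosyltransferase. sug was followed by CG13912 (r = 0.860), pll (r = 0.844) and Corp (r = 0.836), and ACC by Moe (r = 0.799), acs (r = 0.794) and ome (r = 0.776). InR was followed by wts (r = 0.825), the kinase of the Hippo pathway, Ace (r = 0.788) and Sulf1 (r = 0.783). AkhR was followed by CG1486 (r = 0.842), gol (r = 0.823) and Tsp42Ee (r = 0.812). For bmm the closest were the noncoding RNA lncRNA:CR42862 (r = 0.835), Gdh (r = 0.793) and CG8036 (r = 0.751), and for foxo CG6051 (r = 0.885), tws (r = 0.850) and CG32767 (r = 0.779). Lsd-1 had the loosest followers, CG5958 (r = 0.798), babos (r = 0.736) and mRpL41 (r = 0.706). None of the 8 genes was among the 3 closest of another.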

How the data were processed

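Transcripts of 24 whole-fly samples were measured on Affymetrix Drosophila GeneChip 2.0 arrays, 1 array a sample. The authors made the deposited intensity values with Affymetrix Microarray Suite 5.0: 14 pairs of matched and mismatched oligonucleotides a probe set gave 1 Signal on a linear scale, scaled to a target of 500. Scaling by the trimmed mean leaves the median free to differ between arrays. The number of arrays limits the precision, and dim probe sets are measured least well. Detection calls were not used here.

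Probe sets were ranked by their 12th-highest Signal and the 7103 lowest left out, so that as many were tested as under the study's own filter. The test was limma 3.58.1 in R 4.3.3 on log2(Signal + 16), with scripts tested on simulated data. Line means were also fitted as replicates. Gene names come from the platform annotation and RefSeq (Release 6 plus ISO1 MT): 13647 probe sets name 1 gene, 402 several and 4720 none. The array tables name no genome build, so no coordinates are given. Only probe sets naming 1 gene were used, the brightest standing for its gene.

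The genes, the companion lists and the marker lists were chosen with earlier results of these data known. The text names every member, each companion consistently different between groups (up to 4 a list), and the 3 genes closest to each member. Of the companions with the largest sex difference (up to 2 a list), some are named and others are not. UGP and AGBE were added beside Glys. Alternatives were other pseudocounts, filters, scalings and probe set summaries, the Signal itself, line as a random block, a replicate block, exchanged male labels, and leaving out each array and line.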

Additional observations from a re-analysis of the deposited data

Results flagged for a closer look

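In C females, foxo on the first C1 array stood apart from the other 3 arrays, with a Signal of 715.0 against 476.3, 478.4 and 507.3. Its distance from the nearest array, relative to the range of the group, was above Dixon's critical value. Of 48 groups of 4 arrays checked (8 genes, 3 selection groups and both sexes), 1 was picked out in this way, and chance picks out about 1 in 20. The same array carried male transcripts, with accessory gland markers that summed to 2349.7. The part of this in the foxo value was not tested.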

How the results depend on the processing

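The sex difference passed for 4 genes and the line by sex interaction for 0 in every alternative. Of 3679 values of 89 single-gene results under 43 alternatives, 3375 kept direction and side of the threshold, 248 lost a call, 17 gained one and 39 changed sign, all of them uncalled in the main analysis. Line was significant for 1 gene in place of 2 (sug lost) with exchanged H1 and H2 male labels, on the Signal itself, with a common median, with no filter, with a pseudocount of 1, without both female first arrays of C1 and L1, and without line C1, C2, H1, H2 or L1. It was 1 to 2 over single arrays left out. Scaling each sex to a common median shifted the median H minus L of all probe sets by 0.15, to 0.13. The counts became 1 (H and L), 0 (H and C) and 1 (L and C), and sug, at -0.19 for H minus L, was -0.32 relative to that median, against -0.33 in the main analysis. Line as a random block gave 1, 0 and 1. Without filter, H and C gave 0. Without both female first arrays the counts were 4 (Lsd-2, sug, AkhR and Lsd-1), 0 and 1. Leaving out single arrays gave 2 to 4 for H and L (4 without the first L1 female array), 0 to 2 for H and C, and 1 to 2 for L and C. H and C gave 3 without line C1 and 0 without H1. L and C gave 4 without C1 and 1 without C2 or L1. H and L gave 1 without L1.

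Signs of small differences changed as follows, and the cause was not tested. foxo H minus L became 9.4 in Signal units on the Signal itself, 0.16 with a common median, 0.0011 with a pseudocount of 64, 0.0115 with quantile normalization, 0.0327 without H1 and 0.0248 without L1, and was -0.0472 to 0.0437 over single arrays left out. AkhR L minus C was -0.0209 with a common median, -0.0716 without C1 and -0.0263 to 0.127 over single arrays. InR H minus L was 0.0799 with a common median and 0.226 without L1. InR H minus C was 0.0313 with a common median and 0.0256 without C2. InR L minus C was -0.0486 with a common median, -0.0624 without C1, -0.286 without L1 and -0.0328 to 0.0778 over single arrays. Lsd-1 L minus C was -0.0278 with a common median, -0.0417 without L2 and -0.0404 to 0.129 over single arrays. Against the controls, sug H minus C was 0.147 without C1, and without C2 sug L minus C was -0.266, Lsd-2 H minus C -0.0035 and bmm H minus C 0.0193. Without L1, bmm H minus L was -0.0672 and ACC H minus L -0.137. bmm H minus L was -0.0123 to 0.111 over single arrays.

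With a replicate block the counts were unchanged: 4 by sex, 2 by line, and 2, 1 and 2 between groups, with an adjusted p of 0.000465 for line in sug. The replicate numbers are not stated to mark a shared batch, and only 19 of 66 pairs of line-by-sex groups had same-numbered arrays deviating together at a correlation over 0.1, so the numbers were not taken as pairs. Dim probe sets and the number of arrays limit these results: 2 arrays a line and sex and 2 lines a group.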
